A study of Mus musculus with 6 samples.

Results

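The 6 kallikreins Klk1, Klk6, Klk8, Klk10, Klk11 and Klk14 were followed across 6 single cell RNA sequencing libraries, 3 from mouse kidney and 3 from mouse mammary tumor. They were found by gene symbol and made up 6 of the 31053 genes measured and 6 of the 27 genes whose symbol starts with Klk. The 6 were chosen because their levels differed between cell types or between libraries of these data, so their levels and ratios are given as descriptions without a test. Every level below is a count of unique molecular identifiers (UMIs), each a tagged 3′ end of 1 transcript, or UMIs per 1000000 UMIs of the same cells (CPM). Because 1 end is counted per transcript, these levels carry no term for transcript length.

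Kidneys came from 12-week-old male C57BL/6 mice, and tumors from 10-week-old female MMTV-PyMT mice, in which the promoter of mouse mammary tumor virus drives the polyoma middle T oncogene in mammary epithelium. All tissue was minced and digested with type I collagenase, either as a conventional 60 min control or in a microfluidic platform made of a digestion device followed by a device that dissociates and filters, from which cells were collected at 15 min and 60 min intervals. In the study's interval format, released cells are taken out, collagenase is renewed and the tissue left in the device is digested further. The 60 min cells thus came from tissue that had already given up its 15 min cells. All suspensions were treated with DNase I and red blood cell lysis buffer and sorted as SytoxBlue-negative (live) cells before droplet capture. There was 1 library per condition and tissue, from 1 replicate. The study's reporting summary states that control and device conditions of a replicate used tissue of 1 mouse. The digestion method and interval therefore cannot be told apart from differences between tissue portions or between libraries. Intervals in brackets are exact 95% intervals that cover counting error only.

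Kallikreins are secreted trypsin-like or chymotrypsin-like serine proteases, made as inactive precursors that other proteases activate. Klk1, true tissue kallikrein, cleaves kininogen to release kinins, and in the kidney it is known as a product of the connecting tubule, the segment that joins the distal convoluted tubule to the collecting duct. The others studied here belong to the group best known from stratified epithelium, where they act in a proteolytic cascade that cleaves desmosome proteins as cells are shed, and Klk6 (neurosin) and Klk8 (neuropsin) are also known from the nervous system.

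All 6 genes lie on the plus strand of chromosome 7 in GRCm38 (mm10), the build of the deposited data. In the GENCODE M21 annotation they run in the order Klk14 (chr7:43690418-43695536, ENSMUSG00000044737), Klk11 (chr7:43774604-43779263, ENSMUSG00000067616), Klk10 (chr7:43781035-43785410, ENSMUSG00000030693), Klk8 (chr7:43797577-43803826, ENSMUSG00000064023), Klk6 (chr7:43824499-43832030, ENSMUSG00000050063) and Klk1 (chr7:44225360-44229618, ENSMUSG00000063903). The first 5 span 141613 bases, with Klk11 and Klk10 separated by 1772 bases, and Klk1 starts 393330 bases beyond the end of Klk6, on the far side of a block of Klk1b genes. A total of 26 of the 27 Klk genes lie in this cluster of 539201 bases, and Klkb1, plasma kallikrein, lies on chromosome 8. The gene 2310002F09Rik overlaps Klk14, Klk11, Klk10 and Klk8 on the opposite strand, Gm10109 overlaps Klk1 on the opposite strand, Gm44817 lies on the same strand as Klk14 and overlaps it, and Klk6 overlaps no other gene. The last 500 bases of the Klk1 transcripts share 173 of their 526 distinct 50-base words (32.9%) with another Klk gene, so reads of Klk1 and the Klk1b genes can be confused, whereas those of Klk6, Klk8, Klk10, Klk11 and Klk14 share 0.

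The promoter windows of the members that differed most in where they were detected are shown here because neighbouring genes of 1 cluster had different cell type patterns. They are RefSeq windows of GRCm38.p6, each 300 bases, from 250 bases before to 50 bases after a transcript start, read 5′ to 3′ on the plus strand, with GC boxes (GGGCGG or its reverse complement CCGCCC) in capitals. The windows are those of Klk10 at chr7:43780804-43781103, Klk14 at chr7:43690168-43690467, the first of 2 starts of Klk6 at chr7:43824294-43824593, Klk8 at chr7:43797327-43797626 and Klk1 at chr7:44225110-44225409.
Klk10: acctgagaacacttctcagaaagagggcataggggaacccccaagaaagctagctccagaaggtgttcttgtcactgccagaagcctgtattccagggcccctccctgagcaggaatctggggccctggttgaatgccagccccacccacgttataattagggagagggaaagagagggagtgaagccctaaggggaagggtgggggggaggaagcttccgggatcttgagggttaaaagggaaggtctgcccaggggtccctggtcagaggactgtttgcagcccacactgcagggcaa
Klk14: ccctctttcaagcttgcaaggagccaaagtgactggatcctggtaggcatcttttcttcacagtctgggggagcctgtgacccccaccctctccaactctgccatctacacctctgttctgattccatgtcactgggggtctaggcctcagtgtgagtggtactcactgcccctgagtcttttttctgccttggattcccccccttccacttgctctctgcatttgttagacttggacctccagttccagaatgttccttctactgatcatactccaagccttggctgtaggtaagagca
Klk6: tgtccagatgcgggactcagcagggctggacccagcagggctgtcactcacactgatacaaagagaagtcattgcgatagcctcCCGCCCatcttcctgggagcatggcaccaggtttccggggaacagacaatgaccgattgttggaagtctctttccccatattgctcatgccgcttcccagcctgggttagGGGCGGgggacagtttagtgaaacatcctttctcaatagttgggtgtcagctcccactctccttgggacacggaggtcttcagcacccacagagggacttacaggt
Klk8: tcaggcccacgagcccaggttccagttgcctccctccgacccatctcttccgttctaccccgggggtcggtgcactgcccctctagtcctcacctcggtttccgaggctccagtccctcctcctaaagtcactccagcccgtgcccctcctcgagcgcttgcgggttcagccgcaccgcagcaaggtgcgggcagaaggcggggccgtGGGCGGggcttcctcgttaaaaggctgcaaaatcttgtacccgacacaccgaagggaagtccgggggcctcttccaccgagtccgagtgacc
Klk1: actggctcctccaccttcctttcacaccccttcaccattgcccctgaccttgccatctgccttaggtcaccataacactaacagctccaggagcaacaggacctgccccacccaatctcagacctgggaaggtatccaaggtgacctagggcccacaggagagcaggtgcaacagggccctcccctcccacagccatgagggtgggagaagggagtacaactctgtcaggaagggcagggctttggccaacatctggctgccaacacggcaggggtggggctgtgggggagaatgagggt

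All 6 members matched the RefSeq table, with 8 windows. GC content was 65.3% in the Klk8 window, the highest of the 8, and 52.0% in that of Klk14 and in the second of Klk11, against a median of 52.7% over all 32851 windows of the table. A set of 4 motifs was searched on both strands, overlaps between motifs included, and neither a TATA box (TATAAA, in 13.6% of all windows), an AP-1 site (TGANTCA, 7.81%) nor a Grainyhead site (AACNGGTT, 2.09%) was found in any of the 8 windows. A GC box, present in 35.7% of all windows, was found in Klk8 at positions -42 to -37 from the start, and in Klk6 at -166 to -161 and -56 to -51 of the window shown and at -136 to -131 of its second window. A match to these letters is a description and not a binding site.

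The deposited matrices held between 8152 and 13719 cells per library and between 69691783 and 116998401 UMIs. Kidney cells with 200 to 3000 genes and no more than 50% of UMIs from mitochondria were kept, and in tumor those with 200 to 4000 genes and no more than 25%. By these limits 69.4% to 73.9% of cells were kept, with a median of 4583 to 9476 UMIs per cell. Cells were placed in marker-gated types with no Klk gene in any marker list. The kidney distal nephron gate held 410, 153 and 822 cells in control, platform 15 min and platform 60 min, which were 6.97%, 1.82% and 8.27% of kept cells, and the tumor epithelial gate held 3345, 3877 and 2429 cells, or 58.3%, 66.8% and 40.3%. Cells that no list clearly claimed made up 2.61% to 12.6% of kept cells and were left unassigned. Libraries of 1 tissue shared 19 to 44 cell barcodes in kidney and 10 to 12 in tumor.

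Klk1 was the kallikrein of the kidney. It had 14785 UMIs in kept control cells, 4142 at platform 15 min and 37042 at platform 60 min, and the distal nephron gate, which held 1.82% to 8.27% of the cells, held 91.3%, 86.8% and 87.2% of these UMIs. Klk6, Klk10 and Klk11 had 0 UMIs in all kept kidney cells, which allows up to 0.0204 CPM over 147417953 UMIs, and Klk14 had 1. Klk8 was the other member present, in cells other than those of the nephron.

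Within the distal nephron, Klk1 was highest in the connecting tubule, the segment gated by Calb1, S100g, Slc8a1 and Trpv5, genes of calcium transport. Of these markers 3 exceeded 100 CPM over the 254 cells and the lowest had 62.9 CPM. Connecting tubule cells carried 35030 (34339 to 35732) CPM of Klk1 in control, 42414 (40250 to 44664) at platform 15 min and 35670 (35197 to 36147) at platform 60 min. These values gave a platform 15 min to control ratio of 1.21 (1.14 to 1.28) and a platform 60 min to control ratio of 1.02 (0.994 to 1.04), although the 15 min value came from 13 cells against 83 and 158. In single cells the median was 25032, 26131 and 26757 CPM in the same order and the highest cell reached 112136 CPM. Of the 254 connecting tubule cells, 16 had no Klk1 UMI and 74.0% had more than 10000 CPM. With Leiden clusters named by the same markers in place of gates, the level was 14254, 29996 and 19235 CPM, so that control was then the lowest. With cells above the upper limits put back, the level was 31651, 26648 and 31371 CPM, so that 15 min was then the lowest and no longer the highest.

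The other distal segments carried Klk1 at a lower level. The thick ascending limb, which makes uromodulin and takes up salt through Slc12a1, had 1806 CPM in control, 2603 at platform 15 min and 2459 at platform 60 min, and the distal convoluted tubule, marked by the thiazide-sensitive transporter Slc12a3, had 1170, 1972 and 1883 CPM. Both were lowest in control and close together at the platform intervals. Intercalated cells, the acid-base cells of the collecting duct, had 2197 (2017 to 2389) CPM in control, 7825 (7313 to 8363) at 15 min and 2494 (2314 to 2684) at 60 min, from 47, 24 and 50 cells, and their 15 min value was 3.56 times that of control. The connecting tubule markers together had 702, 261 and 732 CPM in intercalated cells, lowest at 15 min, where Klk1 was highest.

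Principal cells, the water-reabsorbing cells of the collecting duct marked by aquaporin 2, lay at the other end. They had 4 Klk1 UMIs in 44 control cells (23.7 CPM), 10 in 52 platform 60 min cells (44.8 CPM), never more than 1 in a cell, and 0 in 5 cells at 15 min, where a count of 0 allows up to 824 CPM. The principal cell level was 0.0678% of the connecting tubule level in control and 0.126% at 60 min. For Calb1, another connecting tubule gene, the same percentages were 14.6% and 22.5%, for Slc8a1 3.31% and 7.72% and for S100g 0.573% and 0.526%. These genes are markers of the connecting tubule gate. Principal cells were gated with that score at most 0.6 times their own, so these percentages depend on the gate. Cells that no single segment claimed had 6731, 3867 and 9329 CPM. In control and at 60 min the order from high to low was connecting tubule, unresolved cells, intercalated cells, thick ascending limb, distal convoluted tubule and principal cells, with overlapping intervals of intercalated cells and thick ascending limb at 60 min. At 15 min intercalated cells lay above the unresolved cells, and the order was otherwise as in control.

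**Figure D1:**
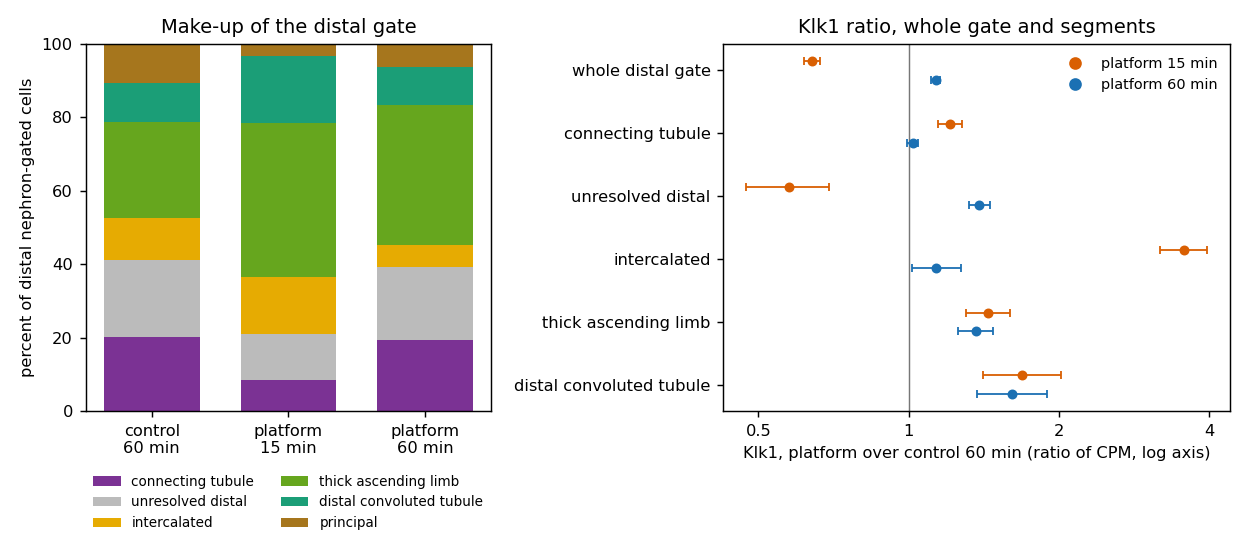
Left, the share of distal nephron cells in each segment gate (percent) by library, and right, the ratio of Klk1 CPM of each platform interval to control (log axis) over the whole gate and in each segment but that of principal cells, with exact 95% intervals as whiskers. The connecting tubule share was 20.2%, 8.50% and 19.2%, and the 15 min ratio was 0.641 over the whole gate but 1.21 in the connecting tubule.

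Outside the distal nephron Klk1 was low. Proximal tubule cells had 18.4 CPM in control, 3.09 at 15 min and 38.1 at 60 min, and endothelial cells had 26.1, 10.4 and 69.3 CPM. Cells that no type claimed had 307, 276 and 458 CPM. Stromal cells had 217 (154 to 298) CPM in 33 control cells, 65.1 (41.7 to 96.8) in 71 cells at 60 min and 0 UMIs in 3 cells at 15 min, and the connecting tubule markers moved with these values, with 412, 94.9 and 0 CPM in control, 60 min and 15 min. After each cell was thinned to 1000 UMIs, 2.20%, 0.227% and 4.80% of assigned cells outside the distal nephron had a Klk1 UMI (8.14%, 1.5% and 18.6% without thinning), against 54.9%, 59.2% and 65.4% of distal nephron cells and 91.4%, 100% and 93.1% of connecting tubule cells. These outside shares followed the order of the Klk1 total of each library. As a percentage of the connecting tubule level, the proximal tubule level of Klk1 was 0.0525%, 0.00728% and 0.107%, that of Calb1 0.0669%, 0.00261% and 0.147%, and that of S100g 0.0949%, 0.0313% and 0.164%, all lowest at 15 min and highest at 60 min. Slc8a1, at 0.145%, 0.0302% and 0.137%, was lowest at 15 min but highest in control. Kng2, at 0.392%, 0.566% and 1.30%, was lowest in control and highest at 60 min. The proximal and endothelial values were not read as expression by these cells, and their source was not tested.

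**Figure D2:**
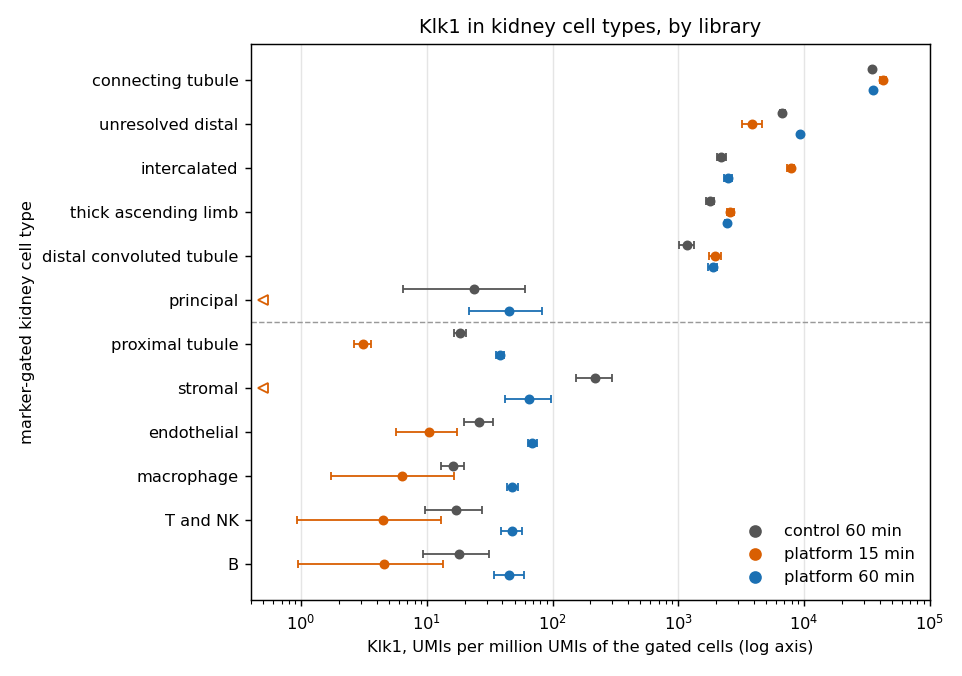
Klk1 CPM (log axis) in each marker-gated kidney cell type, 1 point per library, with exact 95% Poisson intervals as whiskers, open triangles for 0 UMIs and a dashed line between distal nephron types (above) and others (below). Connecting tubule cells lay at 35030 to 42414 CPM in the 3 libraries, and principal cells at 0 to 44.8 CPM.

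Over the whole distal nephron gate, Klk1 was lower at platform 15 min than in control, with 5387 (5213 to 5566) CPM against 8408 (8267 to 8551), a ratio of 0.641 (0.617 to 0.665), and higher at platform 60 min, with 9518 (9415 to 9623) CPM, a ratio of 1.13 (1.11 to 1.16). Past a 1.5-fold line, 19.9% of the 6656 genes with at least 30 UMIs were lower at 15 min than in control, Klk1 among them, and 6.3% were higher. At 60 min, 6.18% of 9011 genes were higher and 8.43% lower, and Klk1 was within the line. The ratio of 15 min to 60 min was 0.566 (0.547 to 0.586), where 19.7% of 8385 genes were lower and 9.18% higher. These shares are background only, since Klk1 was chosen with its values known.

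The makeup of the gate also differed between libraries. Connecting tubule cells were 20.2% of the distal nephron gate in control, 8.50% at 15 min and 19.2% at 60 min, and held 66.1%, 34.7% and 58.6% of the Klk1 UMIs of their libraries. With each segment given its weight in control, a calculation added after these values were seen, the 15 min ratio turned from 0.641 to 1.22. This value uses the level of 13 connecting tubule cells at 15 min. Without upper limits on cells that level was 26648 CPM, below the 31651 CPM of control. The part of makeup in the ratio was not tested. The median mitochondrial share of distal nephron cells was 24.2%, 27.7% and 30.1%, and its part in these values was not tested. Of the 297 kept kidney cells with more than 10000 CPM of Klk1, 188 were connecting tubule cells. In the distal nephron gate, 50% of all distal Klk1 UMIs lay in 64 of 1385 cells, and the highest single cell held 950.

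Other genes that gave Klk1-like patterns were sought over 36 sums of cells, each 1 gated type in 1 library, from 14 gates. The 5 with the highest Pearson r of log2(CPM + 1), among 13455 genes, were Bsnd (0.913), the barttin subunit of the chloride channels of the thick ascending limb and distal nephron, Hoxd10 (0.912), a homeobox gene, Kng2 (0.907), a kininogen and thus of the family of Klk1 substrates, Ybx2 (0.904), and Tmem72 (0.902). The sums share libraries and depth, and the correlations are given as descriptions.

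Of 22 genes of the kallikrein-kinin, renin and sodium channel systems, 13 had at least 30 UMIs for the 15 min comparison in the distal nephron. At 15 min, 1 was past 1.5-fold higher than control, Kng2 (1.72), against 6.3% of all genes tested. Past it in the lower direction were 6, against 19.9% of all genes, and the median ratio was 0.781 against 0.925. The 6 were the 3 subunits of the epithelial sodium channel, Scnn1g (0.0525), Scnn1b (0.0809) and Scnn1a (0.478), the mineralocorticoid receptor Nr3c2 (0.592), its target kinase Sgk1 (0.101) and the protease Tmprss2 (0.590). Principal cells, which carry this channel, were 44 of 410 gated cells in control and 5 of 153 at 15 min. At 60 min, 0 were past the fold higher and only Sgk1 lower (0.528), with a median of 0.949 against 0.930. Of all genes tested at 60 min, 6.18% were higher and 8.43% lower. The potassium channel Kcnj1 stayed within the fold in both comparisons (0.907 and 0.982), as did the protease inhibitor Spint2 (1.13 and 0.949), and Kng2 had a ratio of 1.49 at 60 min.

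The close relatives of Klk1 added little in kidney. The Klk1b genes had 497 UMIs together, 0.888% of those of Klk1, and 26.0% of them lay in connecting tubule cells. Klk1b5 (112 UMIs), Klk1b16 (84), Klk1b9 (75), Klk1b3 (65), Klk1b27 (46) and Klk1b24 (33) passed 30 UMIs. With 3′ ends shared in part with Klk1, reads assigned to these genes and to Klk1 are uncertain.

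Klk8, neuropsin, was found in T and NK cells and endothelial cells of the kidney and hardly in its tubules. T and NK cells carried 107 (86.7 to 130) CPM in control, 113 (89.1 to 141) at platform 15 min and 109 (95.7 to 124) at platform 60 min, and endothelial cells 69.1 (58.8 to 80.7), 94.2 (78.6 to 112) and 72.4 (67.1 to 78.1) CPM. The 3 T and NK intervals overlap. A Klk8 UMI was found in 33.2%, 36.9% and 33.7% of T and NK cells and in 25.6%, 25.6% and 23.8% of endothelial cells, which became 6.56%, 10.0% and 9.91% and 5.96%, 6.48% and 6.01% after thinning to 1000 UMIs. Proximal tubule cells had 0.156, 0.107 and 0.371 CPM, macrophages 0.938, 1.59 and 1.55 CPM, and all distal nephron cells together 6 UMIs. The share of proximal tubule cells with a UMI was 0.0964%, 0.0694% and 0.237%, so the T and endothelial shares were far above this background.

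Within the T and NK gate, a split by T receptor genes (Cd3e, Cd3d, Trac and Trbc2) and NK genes was made after these values had been seen. The 461 kidney cells with T receptor UMIs alone had 135 (121 to 151) CPM of Klk8, with a UMI in 41.9% of cells, whereas the 91 cells with NK UMIs alone had 7.82 (1.61 to 22.9) CPM and a UMI in 2.20%, and the 199 cells with both had 88.8 CPM. The kidney intervals of the first 2 sets did not overlap. The same split in tumor gave 194 CPM in 492 cells with T receptor UMIs alone, 73.6 (31.8 to 145) in 18 with NK UMIs alone and 152 in 294 with both. In tumor the whole T and NK gate had 181, 172 and 166 CPM in control, 15 min and 60 min (282, 225 and 300 cells), with a Klk8 UMI in 69.9%, 60.9% and 52.7% of cells, or 18.5%, 13.9% and 12.7% after thinning.

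**Figure D3:**
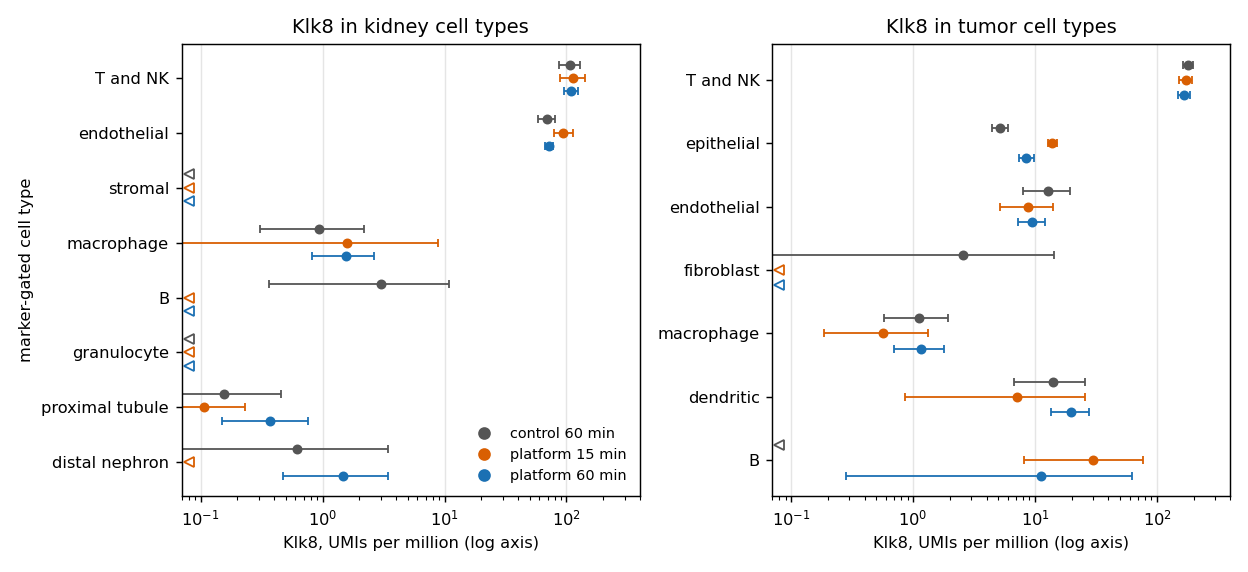
Klk8 CPM (log axis) in marker-gated types of kidney (left) and tumor (right), 1 point per library, with exact 95% Poisson intervals as whiskers and open triangles for 0 UMIs. T and NK cells were highest in both tissues, at 107 to 113 CPM in kidney and 166 to 181 CPM in tumor.

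Endothelial cells of the tumor had less Klk8 than those of the kidney, 12.8, 8.77 and 9.43 CPM, though tissue, sex, age and strain differ together and cannot be told apart. Tumor macrophages had 1.12, 0.568 and 1.16 CPM and dendritic cells 13.9, 7.12 and 19.7 CPM. The genes most like Klk8 over the same kidney sums were Stk32c (r = 0.918), Cysltr2 (0.912), Kremen2 (0.904), Ctla2a (0.889) and Gm17745 (0.876). In tumor they were Mbnl3 (0.780), Rnf138 (0.773), Cnbp (0.771), Celsr1 (0.760) and Pcbp2 (0.755). This ranking for Klk8 was also added after its values were seen.

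In the tumor, Klk10, Klk6, Klk14 and Klk11 were kallikreins of the epithelial gate. Epithelial cells held 98.8%, 98.4% and 96.3% of Klk10 UMIs in control, 15 min and 60 min, 98.7%, 96.9% and 92.0% of those of Klk11, 99.1%, 71.7% and 98.0% of those of Klk6 and 95.7%, 73.0% and 82.1% of those of Klk14, and most of the remaining Klk6 and Klk14 at 15 min lay in unassigned cells. For Klk8 the epithelial share was 23.1%, 60.8% and 28.9%. Among assigned cells outside the epithelium Klk10 had 0.712, 2.69 and 0.624 CPM.

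Klk10, a kallikrein long studied in breast epithelium, was the highest of them. It had 65.9 (63.1 to 68.8) CPM in control epithelial cells, 196 (192 to 201) at platform 15 min and 112 (107 to 116) at platform 60 min. Klk6 had 3.55 (2.92 to 4.28), 34.7 (32.9 to 36.6) and 27.1 (25.1 to 29.3) CPM. Klk14, a trypsin-like protease of the skin cascade, had 3.59 (2.95 to 4.32), 22.9 (21.4 to 24.4) and 9.17 (8.0 to 10.5) CPM. Control was the lowest and platform 15 min the highest of the 3 libraries in each, with intervals that did not overlap. Klk8 had 5.17 (4.4 to 6.03), 13.8 (12.7 to 15.0) and 8.46 (7.34 to 9.71) CPM in these cells. Klk11 had 2.42 (1.91 to 3.04), 4.85 (4.18 to 5.59) and 3.33 (2.64 to 4.15) CPM, in the same order, with the intervals of control and 60 min overlapping.

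**Figure D4:**
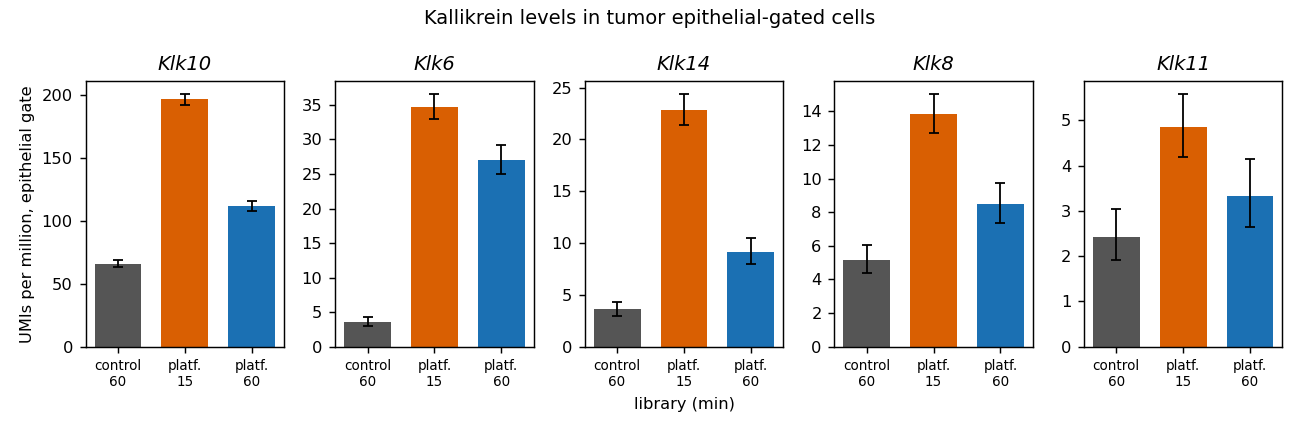
CPM of the 5 members in tumor epithelial cells, 1 bar per library from 0 on an axis of its own for each gene, with exact 95% Poisson intervals as error bars. Platform 15 min was the highest bar in all 5, from 196 CPM for Klk10 to 4.85 CPM for Klk11.

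The sum of these 5 members was 3.38 (3.24 to 3.53) times as high at platform 15 min as in control, and 1.98 (1.88 to 2.08) times at platform 60 min. At 15 min the ratio was 9.78 (8.05 to 12.0) for Klk6, 6.38 (5.23 to 7.84) for Klk14, 2.98 (2.84 to 3.13) for Klk10, 2.68 (2.24 to 3.21) for Klk8 and 2.0 (1.52 to 2.65) for Klk11. All 5 were past 1.5-fold higher, where 10.4% of 13306 genes were higher and 5.99% lower and the median gene stood at 1.14, so that relative to the median gene the sum was 2.95 times as high. At 60 min it was 7.63 (6.22 to 9.42) for Klk6, 2.56 (2.03 to 3.24) for Klk14, 1.69 (1.60 to 1.79) for Klk10, 1.64 (1.32 to 2.03) for Klk8 and 1.38 (0.992 to 1.91) for Klk11, so 4 of the 5 were past the fold. With cells thinned to 1000 UMIs, Klk8 had 1.44, within the fold, and Klk11 0.609, and with Leiden clusters Klk11 reached 1.504. At 60 min, 4.96% of 12985 genes were higher and 4.83% lower. Between the intervals, 15 min over 60 min, Klk14 had a ratio of 2.49, Klk10 1.76 and Klk8 1.63, all past the fold, and Klk11 had 1.45 and Klk6 1.28, where 9.23% of 13146 genes were higher and 5.38% lower. The 3 comparisons share libraries, and since the members were chosen on such ratios nothing is read from these shares. Klk7, another family member of the skin cascade and not among the 6, had 1.36, 2.99 and 3.50 CPM.

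More epithelial cells carried Klk10 in the libraries where its level was higher. A Klk10 UMI was found in 4.90%, 10.5% and 6.79% of epithelial cells, or 2.12%, 5.10% and 3.37% of cells thinned to 1000 UMIs, against 0%, 0.433% and 0.0990% of thinned assigned cells outside the epithelium. Thinned shares were 0.182%, 0.777% and 0.416% for Klk6, 0.212%, 0.932% and 0.790% for Klk14, 0.577%, 1.11% and 0.624% for Klk8 and 0.243%, 0.596% and 0.166% for Klk11, so each was highest at 15 min. Median depth of epithelial cells was 8476, 9869 and 9415 UMIs. Most Klk10 lay beyond the limits on cells, as 60.0%, 59.4% and 62.2% of its deposited UMIs were in cells with over 4000 genes. These were 14.5%, 19.8% and 15.9% of cells, and such cells can be doublets. Cells with more genes also hold more UMIs of all genes, so these shares are not on the same scale. Per UMI, Klk10 had 40.8, 143 and 47.9 CPM over all kept cells, against 59.9, 194 and 78.4 CPM over all deposited cells.

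A few cells held much of each gene. Over the 9651 epithelial cells, 50% of all Klk6 UMIs lay in 5 cells, 50% of Klk14 in 12, Klk11 in 49, Klk8 in 53 and Klk10 in 63. The top 1% of cells held 98.3% of Klk6, 81.7% of Klk14, 72.5% of Klk11, 62.5% of Klk10 and 59.4% of Klk8 UMIs. Cells with any UMI numbered 738 for Klk10, 464 for Klk8, 321 for Klk14, 192 for Klk11 and 132 for Klk6. In each library 50% of Klk6 lay in 2, 3 and 2 cells, so that its ratios between libraries are ratios between a handful of cells, which an interval over UMIs does not show. Without the top 1% of cells for each gene, the 15 min ratio was 5.59 for Klk10, 3.50 for Klk11 and 2.76 for Klk14, the 60 min ratio of Klk10 was 2.56, and Klk6 had no control UMI left. Without the upper limits on cells the 15 min ratio of Klk14 was 3.70, with Leiden clusters 8.49 and with sub-gates weighted as in control, a calculation added after the values were seen, 10.5. The highest Klk6 cell, from platform 15 min, held 336 UMIs of Klk6, 107 of Klk14, 95 of Klk10 and 214 of Sbsn (suprabasin, a protein of differentiated keratinocytes). Other high cells differed. A 60 min epithelial cell with 239 UMIs of Klk6 had 155 of Sbsn and 0 of Klk10. Epithelial cells at 15 min with 205 and 159 of Klk6 had 1 and 0 of Sbsn.

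Members shared cells in the epithelium. After thinning, a Klk10 UMI was found in 65.2% of the 46 cells with Klk6 against 3.34% of cells without, in 60.0% of 35 with Klk11 against 3.43%, in 51.6% of 62 with Klk14 against 3.33% and in 27.3% of 77 with Klk8 against 3.45%. Klk14 was found in 34.8% of cells with Klk6 against 0.483%, and Klk8 in 32.6% against 0.652%. In thinned cells Klk8 and Klk11 were found together in 0 of 9561, but whole cells with both occurred, such as a keratinizing cell at 60 min with 27 UMIs of Klk8 and 8 of Klk11. These cells come from 3 libraries, and no p is given. The pooled shares are weighted to 15 min. In control, 15 min and 60 min, Klk10 was in 3 of 6, 24 of 30 and 3 of 10 cells with Klk6. With Klk14 it was in 4 of 7, 23 of 36 and 5 of 19.

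Keratinizing epithelial cells, gated by Sbsn, Krtdap, Krt10, Krt6a and other genes of stratified epithelium, carried the members at higher levels than the epithelial gate as a whole. There were 95, 144 and 73 such cells. Klk10 had 576 (527 to 628), 1634 (1566 to 1704) and 600 (542 to 663) CPM in them and Klk6 had 108 (87.5 to 132), 744 (698 to 792) and 481 (429 to 537) CPM. Klk14 had 16.7, 255 and 45.9 CPM, Klk8 54.5, 193 and 87.3 CPM and Klk11 31.1, 33.3 and 39.8 CPM. Within these cells the 15 min to control ratio was 15.3 for Klk14, 6.90 for Klk6, 3.55 for Klk8, 2.84 for Klk10 and 1.07 for Klk11, and the 60 min ratio was 4.46 for Klk6, 2.75 for Klk14, 1.60 for Klk8, 1.28 for Klk11 and 1.04 for Klk10. Thus Klk10 differed between control and 15 min in keratinizing cells but had nearly the same level in control and 60 min, and Klk11 was within the fold in both. Single keratinizing cells at 15 min held 336, 205 and 101 UMIs of Klk6 and 107, 59, 40 and 39 of Klk14. The ratios of these genes thus rest on few cells. Only 4 of the 10 keratinizing markers exceeded 100 CPM in the gate and 1 was at 0.

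**Figure D5:**
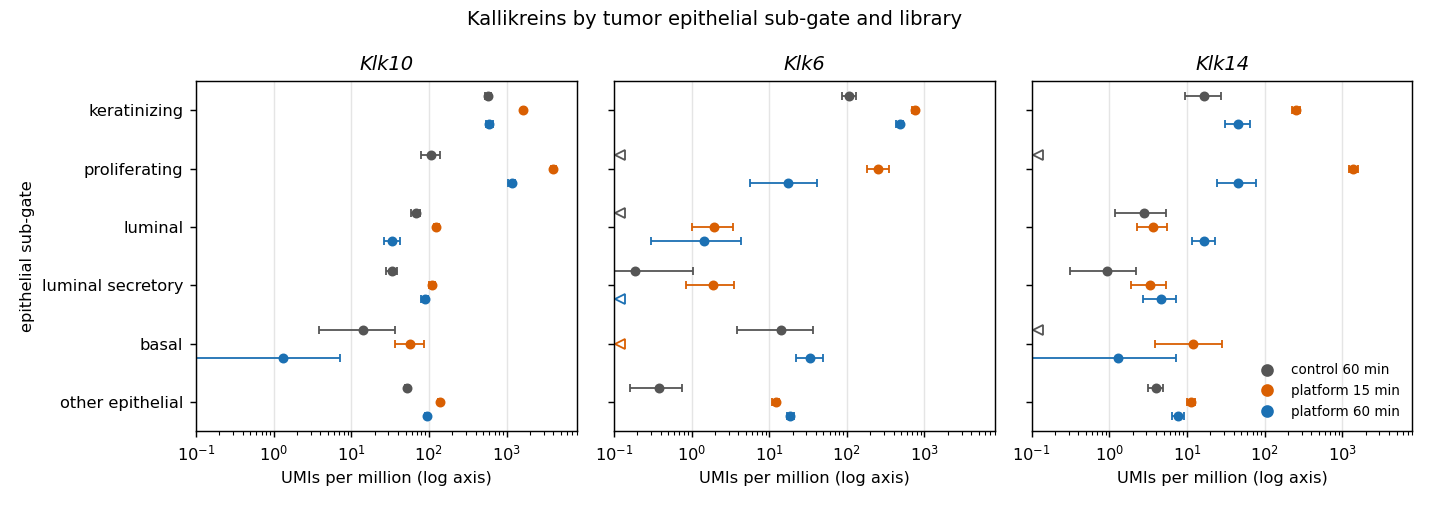
CPM (log axis) of Klk10, Klk6 and Klk14 in each epithelial sub-gate, 1 point per library, with exact 95% Poisson intervals as whiskers and open triangles for 0 UMIs. Keratinizing cells at 15 min had 1634, 744 and 255 CPM of the 3 genes, above the same cells in control.

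Klk10 was also detected outside the keratinizing cells. Luminal cells, marked by Aqp5, Tspan8, Prom1 and Kit, had 67.6, 125 and 33.7 CPM of Klk10, and luminal secretory cells, marked by milk protein genes, 33.1, 109 and 88.2 CPM. Basal cells had 14.2, 57.5 and 1.30 CPM, and epithelial cells of no sub-gate 52.0, 137 and 94.3 CPM. Platform 15 min was the highest of the 3 in each of these 4 groups, while 60 min lay below control in luminal and basal cells and above it in the other two. Proliferating cells had 107 CPM in 61 control cells, 3992 in 15 cells at 15 min and 1167 in 26 cells at 60 min. In the same 15 cells Klk14 reached 1390 CPM and Klk6 255 CPM, against 0 UMIs of both in the 61 control cells, and so few cells carry these values that they describe single cells more than a type.

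Over 37 sums of tumor cells from 13 gates, the genes most like Klk10 among 13975 were Atp10b (r = 0.926), Zfp750 (0.923), a transcription factor of epidermal differentiation, Rhpn2 (0.918), Sox6 (0.916) and Epn3 (0.910). On the same measure Klk11 had r = 0.875, Klk14 0.869, Klk6 0.683 and Klk8 0.262.

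Other genes of stratified epithelium did not move as 1 group. Of all genes tested, 10.4% were past 1.5-fold higher and 5.99% lower at 15 min, and 4.96% higher and 4.83% lower at 60 min. Of 34 cornified envelope and desmosome genes, 21 had at least 30 UMIs for the 15 min comparison, of which 3 were past 1.5-fold higher than control and 6 lower, with a median ratio of 1.08 against 1.14 over all genes tested. Those higher were Sprr1a (8.56), a cornified envelope precursor, the desmosomal cadherin Dsg3 (2.53) and the keratin Krt6a (1.54). Those lower were the transcription factor Ovol1 (0.148), Sfn (0.249), Krt16 (0.368), Lypd3 (0.434), the crosslinking enzyme Tgm1 (0.510) and the transcription factor Grhl3 (0.651). At 60 min 19 were tested, 2 were higher, Cdsn (2.60), whose product corneodesmosin is a known substrate of skin kallikreins, and Krt6a (2.46), and 4 were lower, Grhl3 (0.493), Ovol1 (0.496), Sfn (0.574) and Lypd3 (0.585), with a median of 0.971 against 0.99. Of the 34 genes, 10 are also markers of the keratinizing gate, and the 5 with the most UMIs in the epithelial gate were Sfn, Ly6d, Klf4, Dmkn and Perp. At 15 min and 60 min Ly6d had ratios of 1.29 and 0.848, Dmkn 1.18 and 0.790, Klf4 0.879 and 0.860 and Perp 1.12 and 1.07, all within the fold.

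Most inhibitors and activating proteases of the cascade were within the fold. Among all genes tested, 10.4% were past it higher at 15 min and 4.96% at 60 min. All 13 genes of this list were tested, and 1 was past the fold at each interval, both higher, with medians of 1.23 against 1.14 at 15 min and 1.03 against 0.99 at 60 min. At 15 min it was Spink5 (1.70), the inhibitor LEKTI that holds skin kallikreins in check, and at 60 min Slpi (2.18), a secreted leukocyte protease inhibitor, which had 1.38 at 15 min. The matriptase gene St14, whose product activates kallikrein precursors, had 1.23 and 1.03, its inhibitor Spint2 1.11 and 1.05, Serpinb5 1.06 and 1.16 and Serpinb6a 1.18 and 1.01.

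Klk1 in the tumor lay in 15 cells. It had 203 UMIs there, 35 in control, 102 at platform 15 min and 66 at platform 60 min, and the gates placed these cells as dendritic (4), B (3), epithelial (1), macrophage (1) or unassigned (6). All 15 carried Siglech, a receptor of plasmacytoid dendritic cells, with 12 to 38 UMIs each, together with Bst2, Tcf4 and Irf8. Ccr9 and Klk1b27 were each in 14. Of the B and dendritic markers looked at, Cd79b and Cd209a were each in 6, with 7 UMIs, and Cd79a and Xcr1 in 0. In a choice of cells made after this was seen, 15 of the 19 tumor cells with at least 10 Siglech UMIs had a Klk1 UMI, 3 of 6 in control, 6 of 6 at 15 min and 6 of 7 at 60 min, at 567, 1930 and 815 CPM. The cut was set with the 15 cells in view, so the absence of Klk1 UMIs outside it follows from that choice. Other Klk genes with at least 30 UMIs in tumor were Klk7 (353), Klk1b11 (311), Klk1b26 (255), Klk1b1 (186), Klk1b27 (124), Klk9 (44) and Klk1b9 (44).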

How the data were processed

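Single cell RNA sequencing was performed on 3 kidney and 3 mammary tumor suspensions with 10x Genomics v3 chemistry. Per the labels and the study's methods, the authors aligned reads to mm10 and counted UMIs with Cell Ranger 3.1.0, whose aggregation step evens read depth between libraries. The deposited counts are whole UMIs per gene and cell, before the authors' filters and cell type names, and 0 columns of other series were present. Depth was 69691783 to 116998401 UMIs per library.

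The limits on genes and mitochondrial share follow the study's methods. No doublet caller was run, and doublets were treated only by the upper limits on genes. Each cell was gated by its mean log expression over marker lists free of Klk genes, relative to the 100 highest cells, with a score of at least 0.25 and a runner-up of at most 0.6 times the best. Gate thresholds were set after the separation of markers, not Klk levels, had been seen. UMIs were summed by gate and library. With 1 library per condition no test between conditions exists and no p-value is given. A gene was called at 1.5-fold or more with at least 30 UMIs in the pair. Intervals are exact (Poisson for CPM, Clopper-Pearson for shares, conditional binomial for ratios) at 95%, and a count of 0 was taken to allow 3 counts. For shares of cells, each cell was thinned to 1000 UMIs and shallower cells were left out.

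The members and gene lists were chosen with earlier results of these data known. Genes named are the 6 members, other Klk genes with at least 30 UMIs in a tissue, genes of the lists past the fold or among the 5 with the most UMIs, and the 5 most like the leading member of each tissue over sums of at least 20 cells. List genes past the fold outside those 5, the Klk8 ranking and split, and the Siglech cells were chosen after their values were seen.

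Alternatives covered the limits on cells, gates against Leiden clusters, stricter gates, thinning, scaling, free RNA and the UMI minimum. Calls were tested on simulated data for tumor epithelial cells at 15 min over control, with 12098 genes. All 50 genes made at each of folds 3, 2, 0.5 and 0.333 were called, and 795 of 800 unchanged genes were not. The simulated counts had Poisson counting error only, with no spread between cells or libraries, so recovery was close to certain. They do not show how calls behave for genes carried by few cells. Python 3.11.15, numpy 2.4.6, scipy 1.17.1, pandas 2.3.3, scanpy 1.11.5, leidenalg 0.10.2 and matplotlib 3.10.9 were used.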

Additional observations from a re-analysis of the deposited data

Results flagged for a closer look

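Cells that no marker list clearly claimed entered none of the comparisons above, and in the tumor they carried Klk6, Klk10 and Klk14 above their level in the control library. Klk6 had 277 CPM in the 287 unassigned cells of platform 15 min and 0 UMIs in the 479 of control. Klk14 had 170 CPM at 15 min and 13.4 CPM at 60 min, against 4 UMIs in 1 control cell. Klk10 had 47.5 CPM at 15 min and 23.2 CPM in the 522 unassigned cells at 60 min, against 12 UMIs in control. These differences between libraries were not tested.

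A pair of unassigned cells at 15 min held 513 of the 530 Klk6 UMIs and 325 of the 326 Klk14 UMIs. They carried 117 and 122 UMIs of Sbsn, a gene of keratinized epithelium. They also had 17 and 9 UMIs of Epcam, an epithelial adhesion gene, and 0 of Krt8. Krt8 is only 1 of the keratins in the epithelial list, and counts of the others are not given here. Some cells high in Klk6 that the gate took as epithelial also had 0 or 1 Krt8 UMI. The highest pair of cells held 60 of the 91 Klk10 UMIs at 15 min and 64 of 83 at 60 min.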

How the results depend on the processing

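No paired analysis was possible because each condition had 1 library per tissue. Of 160 recomputed values, 92 stayed within their counting interval or, for shares of genes past the fold, within 1.5 times, 67 moved further and, of values past the fold, 1 turned its direction. The causes were not tested. For the sum of the 5 tumor members at 15 min (3.38), Leiden clusters gave 3.76, leaving out the 1% of cells with the most UMIs 4.77, thinning 4.11, subtracting free RNA 4.89, scaling by the median ratio 2.95 and weighting sub-gates as in control, added after the data were seen, 4.01. At 60 min (1.98), leaving out the top cells gave 2.44, thinning 2.17 and subtracting free RNA 2.86. Free RNA in tumor was taken as the level in assigned cells outside the epithelium, which include T and NK cells, where Klk8 was highest. The sums after this step are thus not read as corrected values. Subtraction gave 15 min ratios of 2.97 for Klk10, 9.80 for Klk6, 6.38 for Klk14 and 1.96 for Klk11, all within their intervals. For Klk1 in the distal nephron at 15 min (0.641), no upper limits gave 0.601, Leiden clusters 0.581, scaling without mitochondrial UMIs 0.677, leaving out top cells 0.616 and weighting segments as in control 1.22, the 1 reversal. At 60 min (1.13), no upper limits gave 1.03, Leiden clusters 1.10, strict gates 1.22, scaling without mitochondrial UMIs 1.22, thinning 1.06 and the median ratio 1.28. Of 86 ratios of single tumor members, 68 stayed within their interval. Klk11 at 60 min, within the fold at 1.38, fell below 1 on thinning (0.609). Klk6 without its top cells and Klk8 with free RNA subtracted gave no value.

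With at least 100 UMIs per gene, 3.94% of tumor genes were past the fold in the lower direction at 15 min, and 3.00% in the higher and 2.89% in the lower direction at 60 min. In kidney 3.25% were higher and 12.1% lower at 15 min, and 2.33% higher and 4.99% lower at 60 min. Without upper limits, Klk10 had 83.5, 251 and 166 CPM in epithelial cells of control, 15 min and 60 min, and Klk1 31651, 26648 and 31371 CPM in the connecting tubule, where 15 min turned from the highest to the lowest library, and Leiden clusters gave 14254, 29996 and 19235. All deposited cells held 5418, 19625 and 7604 UMIs of Klk10 and 36517, 9566 and 88472 of Klk1. Thinned to 2000 UMIs, 2.93%, 6.62% and 4.47% of epithelial cells had Klk10, and without thinning 4.90%, 10.5% and 6.79%. For Klk1 in the connecting tubule this share was 97.8% in control and 97.0% at 60 min. Counting intervals do not cover the spread between cells, which matters where 13 connecting tubule cells or a handful of Klk6 cells carry a value.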
